A study of Homo sapiens with 6 samples.

Results

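Wild-type U2OS cells, an established human osteosarcoma line, were described from the 3 of 6 RNA libraries that the labels give as wild type. The titles mark 2 of them b and c and give the other no mark, and that one is called replicate 1 here. The libraries were chosen by that label and by no measured value. The other 3 came from U2OS cells titled G3C2 and labelled ZFP36L1 deficient, after CRISPR/Cas9 editing, and they are not described. All cells were grown in DMEM with 10% foetal bovine serum and antibiotics and were harvested in log phase at 65 to 75% confluency, and RNA was enriched with oligo(dT) beads. The labels name no other agent. No label says if the wild-type cells were the parental population or had passed through the editing steps. The study grew its cells on 3 occasions, and no label says which occasion a library came from, so the spread between these libraries may be technical in part.

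Osteosarcoma is a bone-forming tumour of mesenchymal origin. In normal bone, RUNX2 commits a mesenchymal cell to the osteoblast lineage, SP7 (osterix) acts after it, and the mature cell secretes type I collagen, SPARC, alkaline phosphatase, osteopontin, bone sialoprotein and osteocalcin. U2OS is known as a line that keeps its telomeres without telomerase, by recombination between them, that lacks the cell cycle inhibitor p16, and that is much used for studies of the cell cycle, DNA repair and the circadian clock. In a bulk sample fewer cells with a message and less RNA per cell cannot be told apart.

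The 3 libraries stood in 2 deposited tables, replicate 1 in the first and replicates b and c in the second, and the tables did not share a scale. The deposited FPKM of the 19644 nuclear protein-coding genes listed in both were therefore rescaled to a sum of 1000000 in each library (TPM, transcripts per 1000000), and ranks were taken within each library. Values below are TPM in the order replicate 1, b and c unless another scale is named. A gene is called expressed at TPM of at least 1 in all 3 libraries and silent at TPM under 0.1 in all 3. Reads recovered from the FPKM came to 18920000, 28960000 and 22600000, rounded. For replicate 1 this exceeds 18720000, the estimated total that its FPKM had been divided by, so its reads are approximate for part of the genes. A count of 0 was taken here to allow for up to 3 reads, counting error only. At these depths 3 reads were worth a median of 0.156, 0.109 and 0.153 TPM over the coding genes. That limit was under TPM 0.1 for only 21.8%, 45.3% and 27.1% of them. The silent class thus holds genes with no or few reads at this depth and not genes shown to be off.

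Replicate 1 stood apart from the others, and library and table cannot be told apart. Its FPKM gave whole reads when multiplied by the mean length of the transcripts of a gene (88.3% of values within 0.02 reads), and those of replicates b and c when multiplied by the length of all its exons together (97.3% and 97.4%). With the length exchanged only 35.5%, 35.1% and 36.3% came out whole. Over expressed genes the exon length was a median of 3.03 times the mean transcript length. For some genes the level of replicate 1 after division by the exon length of the other table is given too, as the level on one length. Elsewhere the levels of replicate 1 hold this difference in length.

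Of the 19644 coding genes, 12005 were expressed (61.1%) and 3396 were silent (17.3%), of which 2697 (13.7% of the coding genes) were listed at 0 in all 3 libraries. The remaining 4243 lay between. TPM of at least 100 was reached by 2250, 2214 and 2331 genes, and by 1439 in all 3 libraries. TPM of at least 1000 was reached by 101, 95 and 71 genes, and by 45 in all 3. The 100 highest genes held 20.4%, 20.6% and 18.2% of all TPM. The first 50% of TPM came from 815, 816 and 1012 genes, so replicate c spread its RNA over more genes than the other two.

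**Figure D1:**
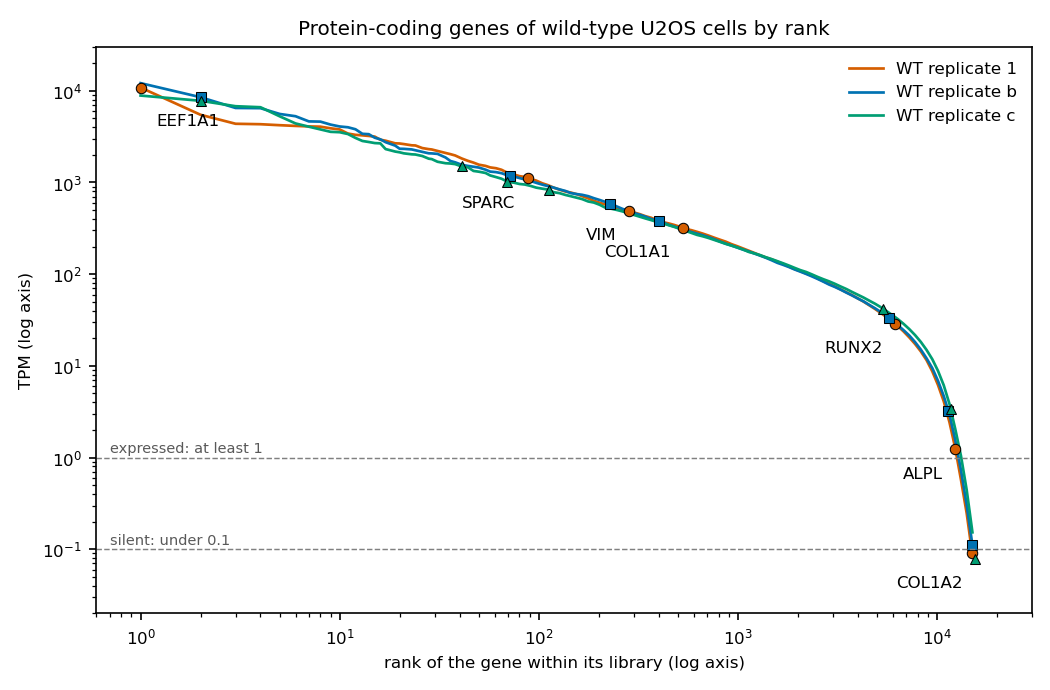
TPM (log axis) of the protein-coding genes against their rank within each wild-type library (log axis), 1 line per library; circles, squares and triangles mark 7 genes in replicates 1, b and c. The 3 curves lie close together, EEF1A1 is at rank 1 or 2 in each library, and COL1A2 is near the end of each, at ranks 15010, 15062 and 15503.

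The genes that led all 3 libraries encode the protein synthesis machinery, the cytoskeleton, glycolytic enzymes and chaperones. EEF1A1, the elongation factor that brings aminoacyl-tRNA to the ribosome, stood at 10833, 8504 and 7775 TPM and at ranks 1, 2 and 2. It was the highest gene of replicate 1 and the next after TMSB10 in replicates b and c. ACTB, cytoplasmic actin, reached 6181 ± 619 TPM (mean ± SD, n = 3) and GAPDH, the glycolytic enzyme, 5278 ± 1203. Of the 25 genes with the best worst rank over the 3 libraries, 12 encode ribosomal proteins, among them RPL8, RPS2, RPLP0 and RPL13A. EEF2, which moves the ribosome along its message, was at 3305, 3074 and 3059.8 TPM, with replicate 1 at 2202 TPM on one length. The others were the RNA-binding proteins YBX1 and PABPC1, the chaperones HSP90AB1 and CALR, the prolyl isomerase PPIA, the glycolytic enzymes LDHB, ENO1 and TPI1, and TMSB10, which binds actin monomers. TMSB10 was the least even of these, at 2466, 12108 and 8863 TPM, with replicate 1 far below the others. On one length its replicate 1 level was 7693 TPM, much nearer to them.

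Cytosolic ribosomal protein genes together held 9.36%, 8.22% and 6.38% of all TPM, with 82 of 84 expressed. Their share was lowest in replicate c, which held a larger share of RNA from the mitochondrial genome than b. That genome gave 5.21%, 8.83% and 13.96% of the summed FPKM over all gene types, and its part in other differences was not tested. The share of replicate 1 rests on its own length and is not comparable with the others. MT-RNR2, a ribosomal RNA of that genome, had 49655, 49503 and 88178 recovered reads. Mitochondrial ribosomal proteins (75 of 78 expressed), aminoacyl-tRNA synthetases (31 of 34), proteasome subunits (35 of 40) and complex I subunits (32 of 39) were also expressed for the most part. Of all coding genes 61.1% were expressed.

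The 10 genes that differed least between the libraries were taken from 1439 at TPM of at least 100 in all 3. With 10 of 1439 taken, the absence of all 16 listed housekeeping references says nothing about those references. Among the 1439 genes the median SD of log2 TPM was 0.38. The smallest belonged to SPRED2, an inhibitor of RAS to ERK signalling, at 117, 117 and 116 TPM. E2F4, a repressive partner of the pocket proteins, followed at 149, 149 and 147 TPM, then HNRNPA2B1, an RNA-binding protein, at 980.2, 986 and 994 TPM. The other 7 of the 10 steadiest were ZDHHC7, FXYD5, RELA, TMEM50A, CD99, CDC42EP4 and ARMCX2. This order rested on the deposited lengths. On one length the replicate 1 levels of SPRED2 and CD99 were 91.95 and 60.5 TPM, below replicates b and c. Of 16 housekeeping references, 15 were expressed (93.75%, beside 61.1% of all coding genes), led by EEF1A1, ACTB, GAPDH, RPLP0 and PPIA. The exception was TUBB, beta tubulin, at 1023 TPM in replicate 1 and listed at 0 in replicates b and c.

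Among noncoding genes, given as deposited FPKM, both mitochondrial ribosomal RNAs were among the highest although poly(A) RNA was selected. MT-RNR2 ranked first of 36742 noncoding genes in every library, at 1701, 1070.2 and 2226 FPKM. MT-RNR1 reached 430.4, 231 and 446 FPKM. MT-TP, a mitochondrial proline tRNA, stood at 323, 266 and 577 FPKM. The processed pseudogenes RPS2P5, RPL41P1, PPIAP22, H3F3AP4 and EEF1A1P5 and the nuclear copy MTATP6P1 completed the first ranks with SNHG19. These are close copies of other genes, so their counts are uncertain. SNHG19, a host gene of small nucleolar RNA, was the only long noncoding RNA of the 10, at 89.6, 159 and 106 FPKM. Long noncoding RNAs gave 1.36%, 2.07% and 2.70% of summed FPKM, and here too the share of replicate 1 rests on its own length. The leading ones by worst rank in that class, named here after their values were seen, included DANCR (128, 34.5 and 33.1 FPKM), MALAT1 (179, 23.2 and 61.4) and NORAD (58.98, 63.2 and 80.2). For a gene with several transcripts the FPKM of replicate 1 are not comparable with those of b and c, because the lengths differ. In recovered reads DANCR had 1688, 2339 and 1923, MALAT1 4263, 6074 and 13777, and NORAD 5896, 10011 and 10876.

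Osteoblast lineage genes were expressed in part. Of 20 listed, 10 were expressed (50%) and 3 silent (15%), beside 61.1% and 17.3% of all coding genes. SPARC, the collagen-binding glycoprotein osteonectin, was the highest at 1107, 1178 and 1494 TPM and ranks 88, 72 and 41, or 721 TPM in replicate 1 on one length. COL1A1, the alpha 1 chain of type I collagen, followed at 322, 378 and 1013 TPM, highest in replicate c, with replicate 1 at 118 TPM on one length. RUNX2, the master regulator of the lineage, was expressed at an intermediate level of 28.8, 33.4 and 41.7 TPM, and the libraries lay close together. SPP1 (osteopontin) ran from 14.9 TPM in replicate 1 through 40.96 in b to 113 in c. CDH11, a mesenchymal cadherin, stood at 17.3, 11.7 and 15.2 TPM.

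Of the products of the mature osteoblast, ALPL, BGLAP and IBSP were low or silent, whereas SPARC, COL1A1 and SPP1 were expressed. ALPL, alkaline phosphatase, was just above the threshold at 1.23, 3.25 and 3.39 TPM. BGLAP (osteocalcin) lay between the classes at 0.297, 1.04 and 2.37 TPM. SP7, the factor that acts after RUNX2, had 1, 0 and 0 recovered reads. IBSP (bone sialoprotein) and OMD (osteomodulin) had none, which allows up to 0.160, 0.301 and 0.421 TPM for IBSP. Of 6 osteocyte genes only PDPN (podoplanin) was expressed (16.7%, beside 61.1% of all coding genes), at 50.1, 67.8 and 61.7 TPM. MEPE and SOST, the secreted inhibitor of bone formation, were silent. Among 8 osteoclast genes CTSK and MMP9 were expressed (25%), at 3.78, 5.01 and 7.59 TPM and at 1.09, 6.37 and 6.13 TPM. DCSTAMP and OCSTAMP, which drive osteoclast fusion, and the receptor TNFRSF11A (RANK) were silent, and so was its ligand TNFSF11 (RANKL). The decoy receptor TNFRSF11B (osteoprotegerin) was expressed at 7.36, 21.3 and 20.3 TPM. Among the osteoblast markers used to check the label, RUNX2, SPP1, COL1A1, SPARC, MSX2, CDH11 and ALPL were expressed, BGLAP, COL1A2 and DLX5 lay between the classes, and SP7 and IBSP were silent.

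The other chain of type I collagen was nearly undetected. COL1A2 (chr7:94394561-94431232, GRCh38, plus strand) had 2, 8 and 4 recovered reads, or 0.0914, 0.111 and 0.0778 TPM, while COL1A1 (chr17:50183289-50201632, minus strand) had 4500, 23929 and 45856 reads. Normal type I collagen holds both chains. Of the 3 coding genes on either side of COL1A2, BET1, CASD1, SGCE, GNG11 and PEG10 had levels above it in each library, PEG10 at 3.20, 4.43 and 3.57 TPM and CASD1 at 27.3, 25.5 and 38.4 TPM. TFPI2 was also low, at 0.130, 0.291 and 0.815 TPM. COL1A2 and these neighbours were chosen for mention after their values were seen.

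Proximal promoters are shown for 2 genes at the top of all libraries, 1 abundant lineage gene and 2 genes with no recovered read, to set the sequence beside the level. Each line holds the 100 bases before the RefSeq start, from GRCh38.p14, 5′ to 3′ on the strand of the gene, with CG dinucleotides in capitals.
EEF1A1, chr6:73521033-73521132, minus strand: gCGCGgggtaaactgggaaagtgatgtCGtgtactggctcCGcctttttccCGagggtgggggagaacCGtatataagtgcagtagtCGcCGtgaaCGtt
GAPDH, chr12:6535164-6535263, plus strand: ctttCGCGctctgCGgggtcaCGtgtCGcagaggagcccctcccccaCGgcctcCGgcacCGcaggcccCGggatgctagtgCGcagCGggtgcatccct
SPARC, chr5:151686916-151687015, minus strand: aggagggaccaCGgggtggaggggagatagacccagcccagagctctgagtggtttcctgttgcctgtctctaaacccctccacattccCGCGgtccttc
IBSP, chr4:87799454-87799553, plus strand: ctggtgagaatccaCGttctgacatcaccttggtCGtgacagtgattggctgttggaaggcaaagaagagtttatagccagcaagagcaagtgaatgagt
KIT, chr4:54657857-54657956, plus strand: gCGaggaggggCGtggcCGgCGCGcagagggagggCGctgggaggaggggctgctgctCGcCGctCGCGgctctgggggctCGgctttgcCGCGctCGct

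EEF1A1 and GAPDH held 9 and 11 CG in these windows, against a median of 5 over all 35116 RefSeq promoter entries. SPARC, at 1107 TPM or more, held 3, and IBSP, with no read, held 2. KIT, the stem cell factor receptor, also had no read and held 14, a number that 12.8% of entries reach. The 5 were chosen with their levels known and do not describe promoters in general. A comparison of promoters between expressed and silent genes covers only part of them. An entry in the promoter table was found for 78.8% of the coding genes (82.7% of the expressed and 70.8% of the silent). The CpG ratio measures how rich in CG a stretch is. Among matched genes its median over the 300 bases around the start was 0.823 in expressed and 0.277 in silent ones. Why they differ was not tested.

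Genes of the extracellular matrix were expressed almost throughout. Of 20 fibrillar collagen and matrix genes 19 were expressed (95%, beside 61.1% of all coding genes), COL1A2 being the exception. SERPINH1, the collagen chaperone HSP47, stood at 465, 736 and 668 TPM and THBS1, thrombospondin 1, at 490.1, 212 and 288 TPM. The basement membrane collagen chain COL4A2 was at 172, 197 and 524 TPM and COL12A1, which coats collagen fibrils, at 235, 131 and 328 TPM. In both, replicate c was the highest. LOXL2, a cross-linking lysyl oxidase, was at 107, 116 and 217 TPM.

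Cartilage genes were mixed. Of 16 chondrocyte genes 8 were expressed (50%, beside 61.1% of all coding genes) and 2 were silent (COL9A1 and COMP). HAPLN1, the link protein that ties hyaluronan to proteoglycan, stood at 520.2, 547 and 298 TPM, lowest in replicate c. SOX9, the master factor of chondrocytes, stood at 29.5, 225 and 253 TPM, and at 91.8 TPM in replicate 1 on one length. COL11A1 reached 57.9, 129 and 236 TPM, COL9A2 19.9, 106 and 119.6 TPM and MATN3 10.7, 20.5 and 31.4 TPM. COL2A1, the chief collagen of cartilage, was between the classes at 0.307, 0.186 and 0.260 TPM.

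Mesenchymal markers were mostly expressed, 17 of 22 (77.3%, beside 61.1% of all coding genes), and 3 were silent (13.6%, beside 17.3%). VIM, the intermediate filament vimentin, stood at 492, 589 and 834 TPM, FN1 (fibronectin) at 258, 202 and 357 TPM and ALCAM, an adhesion molecule of marrow stromal cells, at 226, 129 and 261 TPM. LUM (lumican) was highest in replicate b and THY1 (CD90) lay at 83.3, 123 and 134 TPM. The silent genes were TWIST1 and ZEB2, transcription factors of the epithelial to mesenchymal transition, and NT5E (CD73), a marker of stromal cells. Other factors of that kind were expressed. TWIST2 was expressed at 3.83, 20.4 and 16.1 TPM, ZEB1 at 22.9, 17.7 and 29.3 TPM and SNAI2 at 19.9, 97.9 and 169.7 TPM. Contractile genes were expressed in 7 of 8 cases, led by TPM2 (527, 648 and 626 TPM), TPM1 (325, 105 and 156 TPM), CALD1, CNN1 and MYL9, the tropomyosins, caldesmon, calponin and a myosin light chain.

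**Figure D2:**
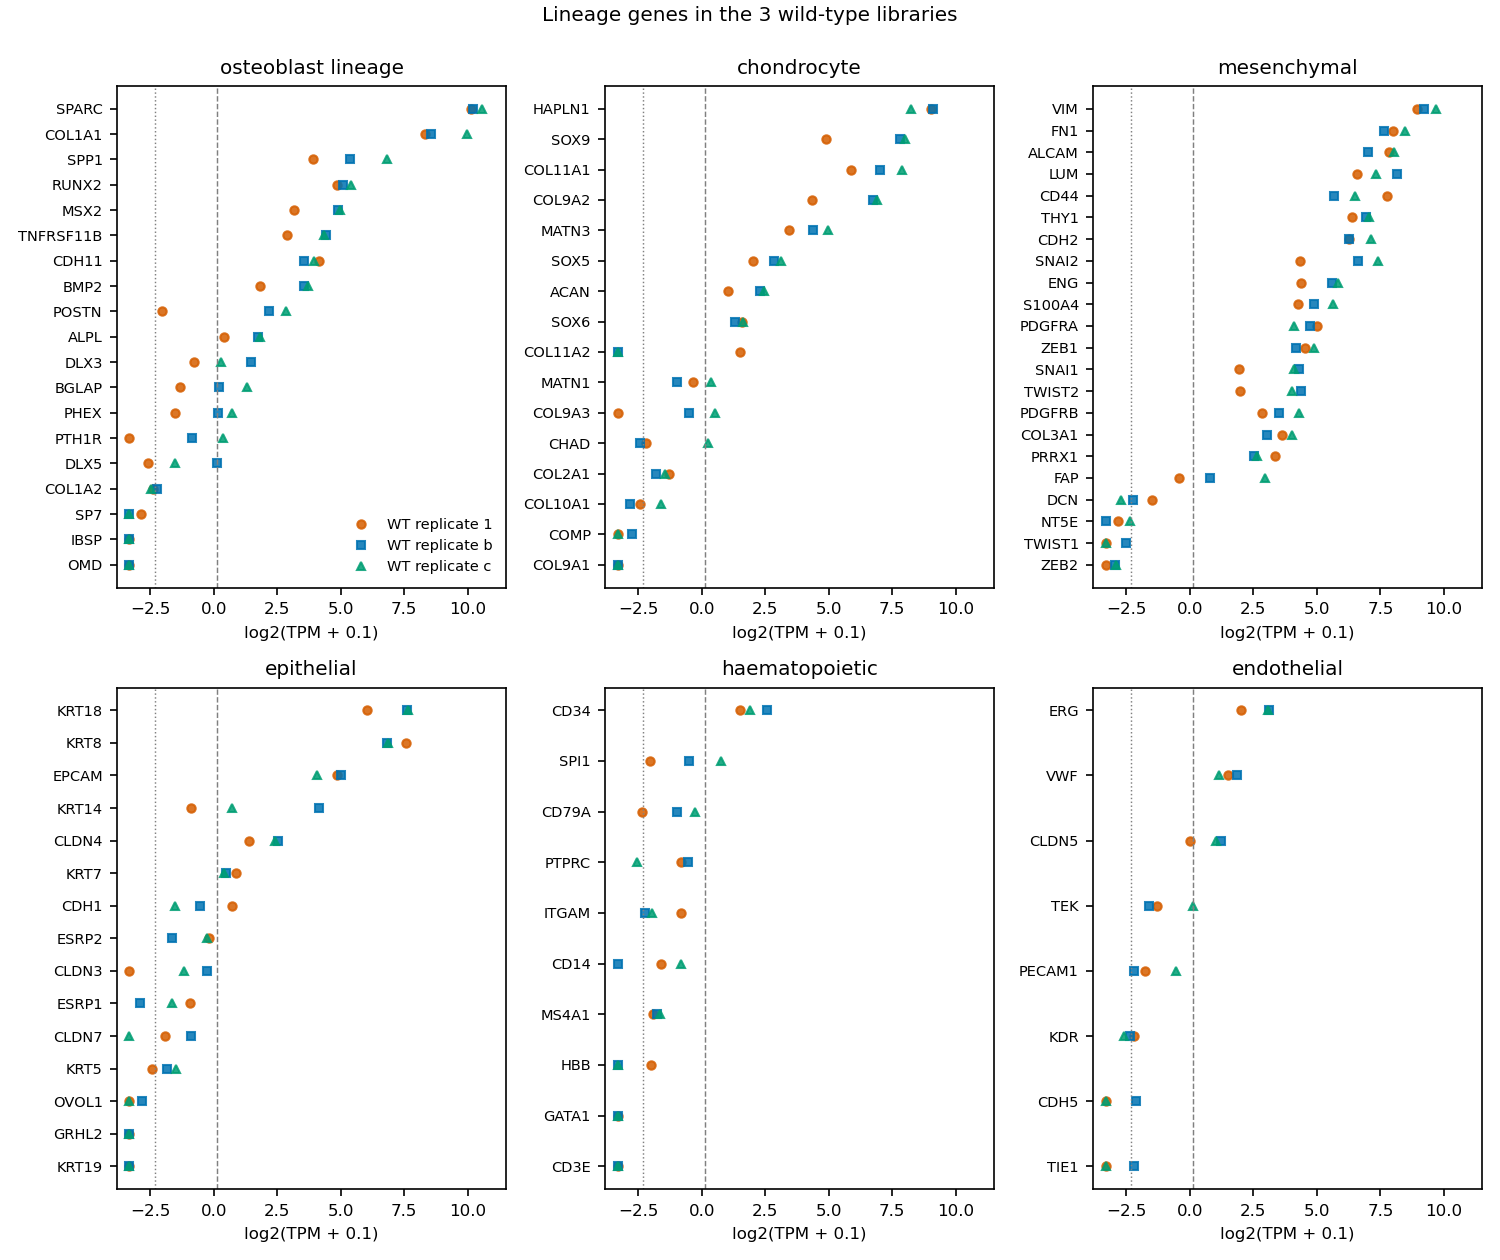
log2(TPM + 0.1) of the members shown of 6 lineage lists (rows, sorted by mean TPM within each list) in wild-type replicates 1 (circles), b (squares) and c (triangles); dashed and dotted lines mark TPM 1 and 0.1. Most mesenchymal genes lie to the right of the dashed line in all 3 libraries, the haematopoietic and endothelial ones mostly to its left, and the osteoblast list runs from SPARC at over 1000 TPM to IBSP and OMD at 0.

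Epithelial genes were expressed in part, led by the simple keratins KRT8 and KRT18. Of 15 genes 5 were expressed (33.3%, beside 61.1% of all coding genes) and 3 silent (20%, beside 17.3%). KRT8 and KRT18, the keratin pair of simple epithelia, stood at 190.3, 112 and 117 TPM and 64.5, 195 and 200.4 TPM. EPCAM, the epithelial adhesion molecule, was expressed at 28.8, 31.95 and 16.8 TPM. CLDN4 and KRT7 were low, and KRT14, a basal keratin, was uneven at 0.433, 17.7 and 1.52 TPM. CDH1 (E-cadherin) had 1.55, 0.577 and 0.246 TPM, where CDH2 (N-cadherin) had 75.9, 76.2 and 139.8 TPM. KRT19 and the epithelial transcription factors GRHL2 and OVOL1 were silent. Over all 55 keratin genes 9 were expressed, and KRT81, a hair keratin, was higher than KRT18 in each library (114, 323 and 530.3 TPM). KRT81 was at 317 TPM in replicate 1 on one length.

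Blood and vessel markers were low, as their summed levels show, but most were not in the silent class. Of the 11 haematopoietic markers 1 was expressed (9.09%), 3 were silent (27.3%) and 7 lay between the classes. Of the 8 endothelial ones 2 were expressed (25%), none was silent and 6 lay between. Of all coding genes 61.1% were expressed and 17.3% silent. The 11 haematopoietic markers summed to 4.44, 7.64 and 6.83 TPM, with CD34 the only one expressed (2.73, 5.74 and 3.62 TPM) and CD3E and GATA1 at 0 in all 3. PTPRC (CD45), the leukocyte surface phosphatase, was at 0.460, 0.592 and 0.0710 TPM. The 8 endothelial markers summed to 8.20, 14.98 and 14.11 TPM. ERG and VWF were the 2 expressed, CDH5 (VE-cadherin) was listed at 0 in replicates 1 and c, and PECAM1 stayed under TPM 1. Liver genes were silent for ALB, TTR, HNF4A and CYP3A4, while SERPINA1 was expressed at 28.8, 31.4 and 31.1 TPM.

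The skeletal muscle, adipocyte, melanocyte and pluripotency lists, of 7 or 8 genes, held 2 expressed genes each. That is 28.6% of the melanocyte list and 25% of each of the others, beside 61.1% of all coding genes. TNNT1, slow skeletal troponin T, reached 204, 349 and 347 TPM while MYOG and MYF5, regulators of muscle fate, were silent. The other expressed gene of the skeletal muscle list was MYH3. PPARG, the regulator of fat cells, stood at 48.96, 31.4 and 36.4 TPM and LPL (lipoprotein lipase) at 21.2, 22.05 and 15.1 TPM, while LEP was silent. MITF, which drives the melanocyte programme but is made in many cell types, was at 77.5, 33.6 and 42.2 TPM with TYR, DCT and SOX10 silent. The other expressed gene of the melanocyte list was MLANA. Of 12 neural genes 8 were expressed (66.7%), a share near that of all coding genes (61.1%), NEFL, the light neurofilament chain, at 28.6, 76.4 and 129 TPM and MAP2 at 17.4, 21.2 and 12.7 TPM, with DCX silent. Of the pluripotency genes LIN28B, a blocker of let-7 maturation, was at 18.7, 20.7 and 16.6 TPM. SOX2 was at 2.42, 37.5 and 24.00 TPM, and at 7.56 TPM in replicate 1 on one length. NANOG, LIN28A, DPPA4, ZFP42 and TDGF1 were silent.

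A few cancer-testis antigens, genes normally limited to germ cells, were abundant in a list that was otherwise low. Of 19 germline and cancer-testis genes 6 were expressed (31.6%, beside 61.1% of all coding genes), all of them MAGE genes, and 7 were silent. MAGEA4 stood at 683, 929 and 716 TPM, MAGEA1 at 137, 396 and 260.2 TPM and MAGEB2 at 97.98, 270.5 and 259 TPM. The replicate 1 levels of MAGEA4 and MAGEA1 were 898 and 427 TPM on one length. MAGEA10 and MAGEC1 lay between 69.4 and 117 TPM. The 12 MAGE-A genes together held 0.122%, 0.214% and 0.169% of TPM, 8 of them expressed. MAGE-A genes are similar in sequence, so the split between them is uncertain. MAGEC2, SSX1 and the germ cell genes DDX4, DAZL, SYCP1, PIWIL1 and TDRD1 were silent.

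Of 12 telomere genes 11 were expressed (91.7%, beside 61.1% of all coding genes) and the gene of telomerase was not detected. TERT (chr5:1253147-1295069, minus strand), the catalytic subunit of telomerase, had no recovered read in any library, which allows up to 0.110, 0.101 and 0.141 TPM. Of the 3 coding genes on either side, the transporters SLC6A19 and SLC6A18 also had no read and SLC6A3 had 0, 3 and 0 reads. SLC12A7, a further transporter, was at 31.7, 3.27 and 8.45 TPM, while CLPTM1L and LPCAT1, the latter an enzyme of phospholipid synthesis, stood at 181, 22.3 and 59.2 TPM and at 65.6, 7.09 and 5.98 TPM. The replicate 1 levels of CLPTM1L and LPCAT1 were 89.9 and 73.5 TPM on one length. DKC1, the telomerase-associated dyskerin that also serves small nucleolar RNAs, was at 419, 186 and 161 TPM. The shelterin genes TERF2IP and TERF2 were expressed at 38.1, 61.7 and 72.04 TPM and at 65.5, 36.4 and 35.6 TPM. H3F3A, a gene for histone H3.3, was at 259, 454 and 308 TPM. ATRX, the chromatin remodeller that deposits H3.3 at telomeres and is often lost in cells without telomerase, was transcribed at 148, 68.5 and 63.8 TPM, or 58.2 TPM in replicate 1 on one length. The protein was not measured. DAXX, its partner, was at 145 TPM in replicate 1 and at 1.21 and 1.41 TPM in the others, a gap between the tables that is described further on.

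The cell cycle machinery was expressed with 1 gap. Of 22 genes of cell cycle control and CDK inhibition 21 were expressed (95.5%, beside 61.1% of all coding genes). CCND1 (cyclin D1) stood at 225, 317 and 347 TPM and CDK4 at 185, 265 and 213 TPM. CCND2, CDKN1B (p27) and CDKN1A (p21) completed the first 5. CDKN1A was the most uneven of these 5, at 106, 302 and 738 TPM. RB1, which holds back entry into S phase, was at 88.8, 57.8 and 57.2 TPM. CDKN2A (chr9:21967753-21995301, minus strand), which encodes p16 and p14ARF, had 3, 0 and 1 recovered reads. The model AL359922.1, which spans it on the other strand, had no read. Of the other neighbours, IFNE, an interferon gene, had 0, 2 and 5 reads, and CDKN2B, MTAP, DMRTA1 and ELAVL2 were expressed. CDKN2B (p15) was at 11.6, 45.3 and 21.01 TPM and MTAP, which recycles methylthioadenosine, at 48.01, 14.5 and 14.8 TPM. Their replicate 1 levels were 17.3 and 21.4 TPM on one length. CDKN2B overlaps an antisense transcript and strand use was not given, so its level is uncertain. Gene-level reads do not tell the 2 products of CDKN2A apart.

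Of 24 genes often silenced by promoter methylation in tumours, 13 were expressed (54.2%, beside 61.1% of all coding genes) and 10 lay between the classes. WIF1, a secreted Wnt inhibitor, was the only silent one (4.17%, beside 17.3% of all coding genes). GSTP1, the glutathione transferase, was at 588, 1162 and 1175 TPM, DKK3 at 176, 193 and 324 TPM, CADM1 at 55.5, 28.6 and 37.7 TPM and TIMP3 at 22.2, 57.00 and 79.9 TPM. MGMT, which removes alkyl groups from guanine, was expressed at 13.4, 25.5 and 26.8 TPM. No methylation was measured.

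Of 48 nuclear receptors 30 were expressed (62.5%, beside 61.1% of all coding genes) and 6 were silent. NR1D2, NR1H2, ESRRA, THRA and NR2F6 led, a repressor of the clock, a sterol receptor, an orphan receptor of energy metabolism, a thyroid hormone receptor and a COUP-like repressor. NR1D2 was the most even of them at 103, 112 and 132 TPM. The glucocorticoid receptor NR3C1 stood at 48.3, 27.1 and 34.2 TPM, and the vitamin D receptor VDR at 16.9, 25.1 and 35.2 TPM. The oestrogen receptor ESR1 was at 0.190, 0.101 and 0.125 TPM. PGR, NR0B2, NR1H4, NR2E1, NR2E3 and HNF4A were silent.

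The circadian clock was nearly complete, with 21 of 24 genes expressed (87.5%, beside 61.1% of all coding genes) and none silent (beside 17.3%). CLOCK and ARNTL (BMAL1), the activating pair, were at 93.8, 31.7 and 35.2 TPM and at 22.7, 15.6 and 15.3 TPM, and the repressors CRY1 and PER1 at 34.6, 29.8 and 38.5 TPM and at 24.9, 32.4 and 44.3 TPM. CSNK1D and CSNK1E, kinases that time PER turnover, were at 123, 67.6 and 98.7 TPM and at 112, 51.4 and 90.3 TPM. BHLHE40 was uneven at 62.9, 180.2 and 482 TPM, and its relative BHLHE41 went the other way in replicate c, at 40.9, 186 and 58.7 TPM. No label gives the time of harvest.

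Receptor tyrosine kinases were expressed in 23 of 36 cases (63.9%, beside 61.1% of all coding genes). AXL, the GAS6 receptor, led at 174, 186 and 225 TPM, then EPHA2 at 95.7, 151 and 263 TPM, MET at 117, 58.4 and 85.5 TPM, FGFR4 at 50.5, 76.6 and 73.3 TPM and EPHB4 at 42.1, 92.1 and 87.6 TPM. EGFR was lower, at 8.41, 5.99 and 10.9 TPM. KIT and FLT3, receptors of blood progenitors, were silent. Among growth factors and cytokines 18 of 22 were expressed (81.8%). CYR61 (CCN1), a target of the Hippo pathway, led at 665, 1505 and 1974 TPM. TGFB1 was at 122, 394 and 339 TPM and CTGF (CCN2) at 108, 835 and 1478 TPM, with replicate 1 at 336 TPM on one length. PDGFC and BMP4 were even across the libraries, at 98.04, 100.5 and 110.3 TPM and at 85.4, 81.2 and 77.4 TPM. TNF and TNFSF11 were silent.

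Genes of nucleic acid sensing, sensors and their downstream factors, were expressed in 11 of 18 cases (61.1%, the same share as of all coding genes). MB21D1 (cGAS), also listed, was not analysed here. IFI16, IRF3, TBK1, MYD88 and IFIH1 (MDA5) led, IFI16 at 72.6, 89.96 and 129 TPM and IRF3 at 56.2, 89.4 and 108 TPM. TMEM173 (STING) was expressed at 12.4, 17.7 and 25.4 TPM. The endosomal receptors TLR7, TLR8 and TLR9 and the Z-nucleic acid sensor ZBP1 were silent. No list stood as far apart between the tables as antigen presentation, whose 14 genes summed to 1553 TPM in replicate 1 and to 196 and 172 TPM in the others. B2M, the light chain of class I molecules, was at 784, 108 and 90.6 TPM and HLA-C at 201, 74.04 and 66.5 TPM. HLA-DRB1 was silent.

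Repair of double-strand breaks was expressed in 21 of 23 genes (91.3%, beside 61.1% of all coding genes) and none was silent (beside 17.3%). XRCC6 and XRCC5, the Ku subunits that bind broken ends, stood at 795, 1019 and 848 TPM and at 935, 497 and 397 TPM. PRKDC, the kinase they recruit, was at 628, 129.6 and 125 TPM, and NBN and RBBP8, which act in end resection, at 100.1, 59.9 and 60.6 TPM and at 86.2, 44.4 and 46.3 TPM. Of 15 genes of drug transport and targets 12 were expressed (80%). TOP2A, the target of doxorubicin, was at 964, 479 and 386 TPM. TOP2B was at 170.3, 168 and 209 TPM and TYMS, which makes thymidylate, at 156, 333 and 281 TPM. ABCB1, the P-glycoprotein efflux pump, was at 38.5, 16.8 and 21.7 TPM. ALDH1A1 was silent.

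HOX genes record the position of a cell along the body axis. Of 39 measured, 27 were expressed (69.2%, beside 61.1% of all coding genes), from all 4 clusters. HOXB7 (40.5, 115 and 97.5 TPM), HOXB9 (31.6, 108 and 166 TPM), HOXC10 (25.1, 53.3 and 38.4 TPM), HOXA9 and HOXC6 led. In each of these replicate 1 was the lowest library, as it was for the first 3 on one length (65.6, 98.7 and 31.5 TPM). HOXB1 was the only silent one. The ZFP36 family, AU-rich element binding proteins and the subject of the study, was expressed as a whole. ZFP36L1 stood at 255, 263 and 703 TPM, with replicate c more than 2-fold above the others. ZFP36L2 was at 33.7, 147 and 131 TPM, with replicate 1 at 105 TPM on one length. ZFP36 (tristetraprolin) was at 10.8, 64.3 and 72.4 TPM, with replicate 1 at 19.4 TPM on one length, still the lowest.

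**Figure D3:**
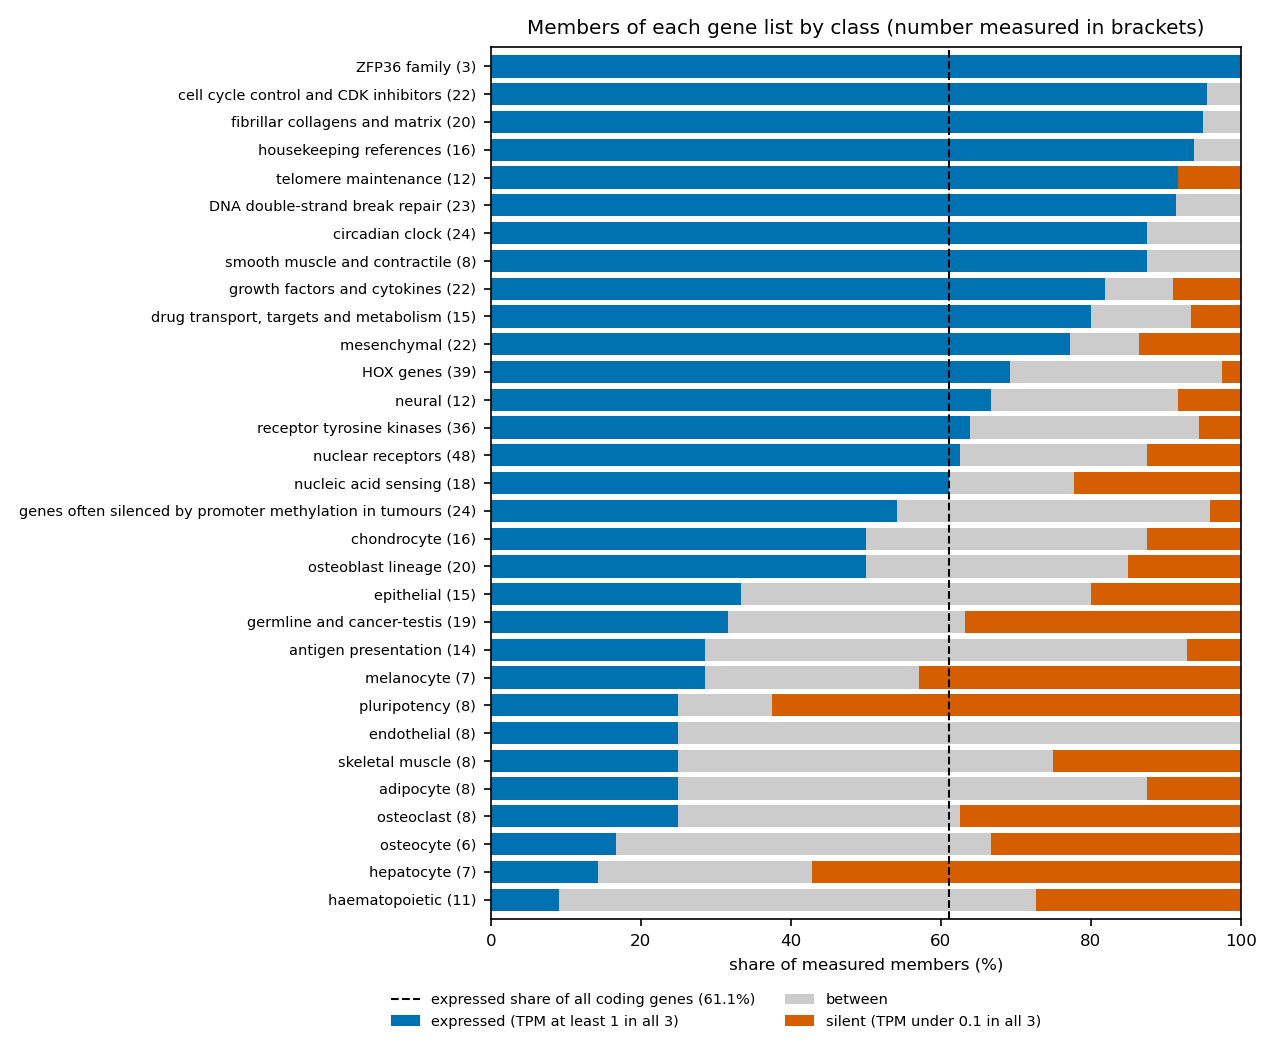
Share of the measured members of each of 31 gene lists (rows, number measured in brackets) that were expressed, silent or between the classes in the wild-type libraries, in percent; the dashed line is the expressed share of all coding genes, 61.1%. The bars run from all 3 members of the ZFP36 family expressed down to 1 of 11 haematopoietic markers.

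Over all lists 314 of 499 distinct genes were expressed (62.9%) and 60 silent (12.02%), against 61.1% and 17.3% of all coding genes. Families taken by gene symbol spread much further. Of 380 olfactory receptors 3 were expressed and 333 silent, and of 19 UDP-glucuronosyltransferases none was expressed and 18 were silent. Type I interferons were silent in 16 of 17 cases, late cornified envelope genes in 15 of 18, beta-defensins in 33 of 39 and keratin-associated proteins in 77 of 94. In short genes of these families a count of 0 allows more than TPM 0.1, up to 0.263, 0.495 and 0.693 TPM for the interferon IFNA16. For DEFB131B, a beta-defensin, the limit was 1.16, 2.18 and 3.06 TPM, above the cut for expressed genes. Silent counts in these families therefore do not show that the genes were off. Zinc finger genes with ZNF symbols were expressed in 402 of 512 cases and solute carriers in 214 of 374. Clustered protocadherins differed by cluster, with 12 of 16 expressed in the beta, 3 of 15 in the alpha and 2 of 22 in the gamma cluster. Genes of the alpha cluster share constant exons, as do those of the gamma cluster, so their counts are uncertain.

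Some members of these and other families were abundant. The 3 olfactory receptors expressed were OR2W3, OR3A2 and OR3A1, OR2W3 at 10.6, 26.7 and 35.6 TPM. S100A11, a calcium-binding protein, led the S100 family at 362, 1244 and 1585 TPM, with 9 of 22 members expressed. Its replicate 1 level was 956 TPM on one length. Tubulins were expressed in 18 of 27 cases (66.7%, beside 61.1% of all coding genes). The family was led by TUBB4B at 435, 1595 and 1109 TPM and TUBA1B at 373, 1454 and 781 TPM. On one length their replicate 1 levels were 1180.5 and 411 TPM, so only TUBA1B of the pair was lowest in replicate 1 on both. Among solute carriers SLC38A2, a transporter of neutral amino acids, stood at 1162, 674 and 879 TPM and SLC25A5, the mitochondrial ADP/ATP carrier, at 772, 1117 and 858 TPM. IL18, a cytokine of the IL-1 family, was far above the other interleukins at 365, 326 and 518 TPM, and 16 of 38 interleukin genes were silent. Cytochrome P450 enzymes were expressed in 15 of 56 cases, CYP26B1, which breaks down retinoic acid, at 28.96, 82.5 and 105 TPM and CYP2R1, which hydroxylates vitamin D, at 31.1, 21.2 and 30.7 TPM. Among claudins, the proteins of tight junctions, 4 of 24 were expressed, CLDN12 at 101, 41.7 and 53.5 TPM. Of 97 potassium channel genes 35 were expressed, led by KCNN4 at 44.7, 95.1 and 103 TPM. Aminoacyl-tRNA synthetases were led by GARS, the glycyl enzyme, at 1038, 311 and 451 TPM, highest in replicate 1. TRIM28, a corepressor of zinc finger proteins, stood at 230.5, 244 and 264 TPM.

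By chromosome the expressed share ran from 47.0% of 230 coding genes on chromosome 21 to 67.0% of 1227 on chromosome 2. Expressed genes had longer coding sequences than silent ones, a median of 481 codons in the longest coding transcript against 317, and 432 over all coding genes. Their span in the genome was a median of 34.9 kb against 11.1 kb. At the top this turned. The 45 genes at TPM of at least 1000 in all 3 libraries had a median of 293 codons, a span of 5.91 kb and an exon length of 2981 bases, against 5217 for all expressed genes. GC content of these transcripts was similar, with medians of 48.9% in expressed and 49.6% in silent genes. The level that a count of 0 allows falls with length, so the classes were not resolved equally well at all lengths.

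Replicates b and c ranked the genes alike and replicate 1 less so. Across the 13842 genes at TPM of at least 1 in any library, Spearman's rho was 0.98 between b and c, 0.83 between 1 and b and 0.82 between 1 and c. These are descriptions across genes, which are not replicates, and b and c share a table and its length. On one length rho rose to 0.88 and 0.86 for the pairs with replicate 1 and stayed at 0.98 for b and c. The SD of the log2 difference over expressed genes went from 1.13 to 0.82 for 1 and b, from 1.16 to 0.89 for 1 and c, and was 0.46 for b and c on both. The share of expressed genes at least 2-fold apart went from 33.5% to 14.5% for 1 and b and from 36.8% to 21.2% for 1 and c, against 4.71% for b and c with the deposited lengths. Of the 100 highest genes of each library 55 were shared by all 3, and 61 on one length. Of the 1000 highest, 571 and 675 were shared.

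**Figure D4:**
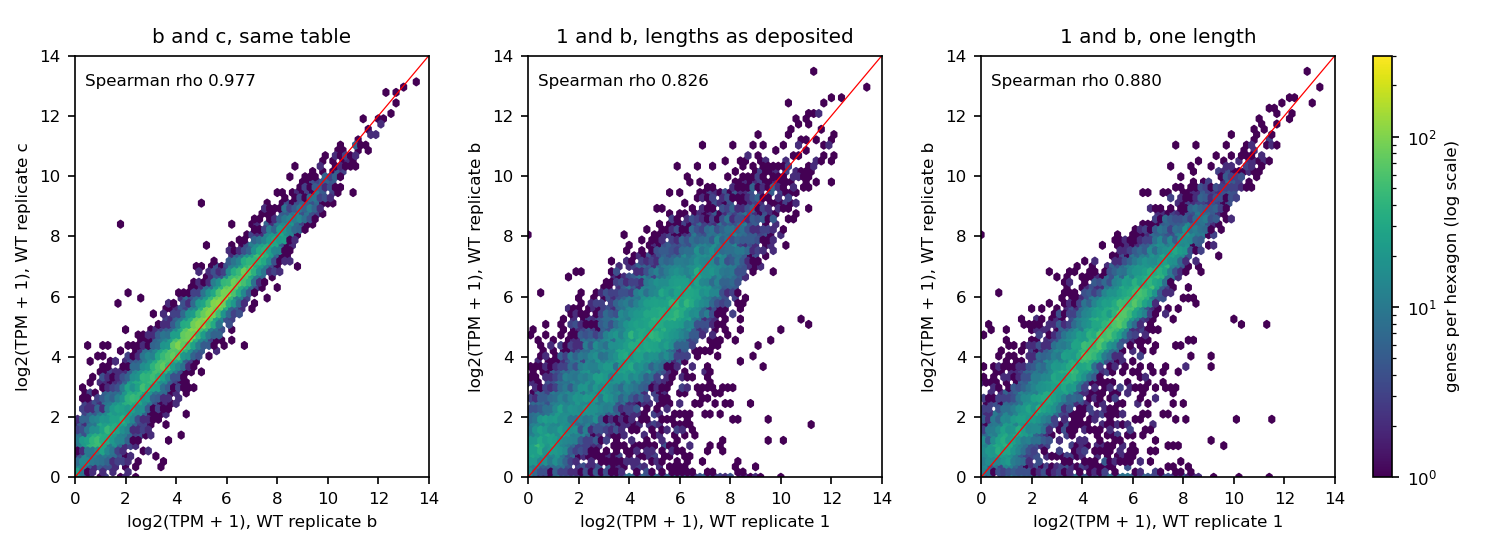
log2(TPM + 1) of coding genes (Y-linked genes not drawn) in replicate c against b (left), b against 1 with the deposited lengths (middle) and b against 1 with one length (right); colour gives the number of genes per hexagon on a log scale and the red line marks equality. The cloud narrows from the middle to the right panel, with rho going from 0.83 to 0.88, and a band of genes high in replicate 1 and near 0 in b stays in both.

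A set of genes was high in replicate 1 and next to absent in the other table. At TPM of at least 10 in replicate 1 and under 0.1 in b and c there were 130 genes (0.662% of the coding genes), and 2 (0.0102%) the other way round, PYURF and ATP6V0C. The highest were TUBB, CLIC1, a chloride channel protein, PRPF8, the central splicing factor, VARS, the valyl-tRNA synthetase, and PRRC2A. TUBB stood at 1023 TPM, CLIC1 at 608, PRPF8 at 519, VARS at 477 and PRRC2A at 427 TPM in replicate 1. These were listed at 0 in b and c, except PRRC2A at 0.0476 TPM in c. In the other direction PYURF stood at 0, 261 and 265 TPM and ATP6V0C, a proton pump subunit, at 0, 24.8 and 21.1 TPM. Genes such as PRPF8 are used by every cell, so an entry near 0 in the second table is not read as silence.

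Many of these genes lay together. Of the 130, 46 lay between 28 and 34 Mb of chromosome 6, the region of the major histocompatibility complex, which is 23.2% of its 198 coding genes against 0.432% of the 19446 others. TUBB, CLIC1, VARS and PRRC2A are from that region, and so are HLA-E, TAP1, TAP2 and RXRB. DAXX and HLA-B lie there too, but at 1.21 and 1.41 TPM and at 0.0508 and 0.498 TPM in b and c they were not among the 130. HLA-E was at 119.5 TPM and RXRB at 57.3 TPM in replicate 1, and both were listed at 0 in b and c. PRAME, a cancer-testis antigen, showed the same gap from another chromosome, at 130.1, 0.0411 and 0 TPM. Why the tables differ at these genes was not tested. Where the tables disagree, as for HLA-B (263, 0.0508 and 0.498 TPM), neither table is preferred here.

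Within the second table, replicate c differed from b in 1 direction more than in the other. Among 13413 genes at TPM of at least 1 in either, c was at least 2-fold above b for 717 (5.35%) and below for 140 (1.04%), on log2(TPM + 1). Centred on the median log2 ratio the counts were 480 and 234. With 1 library on each side there is no replicate check. The mitochondrial share of FPKM was 8.83% in b and 13.96% in c, and its part in these differences was not tested.

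The genes furthest apart were ranked by the log2 ratio of TPM without a pseudocount, among genes at TPM of at least 10 in both. DHRS2, a short-chain dehydrogenase, had the largest log2 ratio of c to b, 4.03, with 32.5, 32.3 and 526 TPM. KRT17, a keratin of stressed epithelia, followed with a log2 ratio of 2.50. Also among the 10 highest were MAP3K7CL, IFI44, RHBDL1, EDN1, EEF1B2, ADAM12 and PIK3IP1. EEF1B2, an elongation factor subunit, was lower in both than in replicate 1 (1036, 30.7 and 133 TPM). EDN1, the vasoconstrictor endothelin 1, stood at 4.54, 15.6 and 70.2 TPM. At the other end were HIST2H2AC, SNRPG, DRD1, BHLHE41, NOV, CCL24, CXCL14, PHLDA1, ID4 and CA2. NOV (CCN3), a matricellular relative of CTGF, reached 2188 TPM in b against 693 in c, a log2 ratio of -1.66, while its relatives CTGF and CYR61 were higher in c. HIST2H2AC, a replication-dependent histone, had a log2 ratio of -2.47.

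By list, matrix and growth factor genes leaned furthest to replicate c. Over the 19 expressed matrix genes the median log2 ratio was 0.90, with 18 higher in c and 7 at least 2-fold higher, namely FBN1, COL7A1, COL1A1, COL4A1, COL4A2, COL12A1 and LOX. FBN1, the chief protein of microfibrils, stood at 6.46, 4.55 and 26.2 TPM. Over 18 growth factors the median was 0.82, with 13 higher in c and 6 at least 2-fold higher, and over 17 mesenchymal genes 0.69. Over all expressed genes the median was 0.15, with 65.5% higher in c and 4.03% at least 2-fold higher. Housekeeping references (-0.20), the cell cycle control list (-0.24) and cytosolic ribosomal proteins (-0.38) leaned to b. In the cell cycle control list CDKN1A went the other way, with c at 738 and b at 302 TPM.

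**Figure D5:**
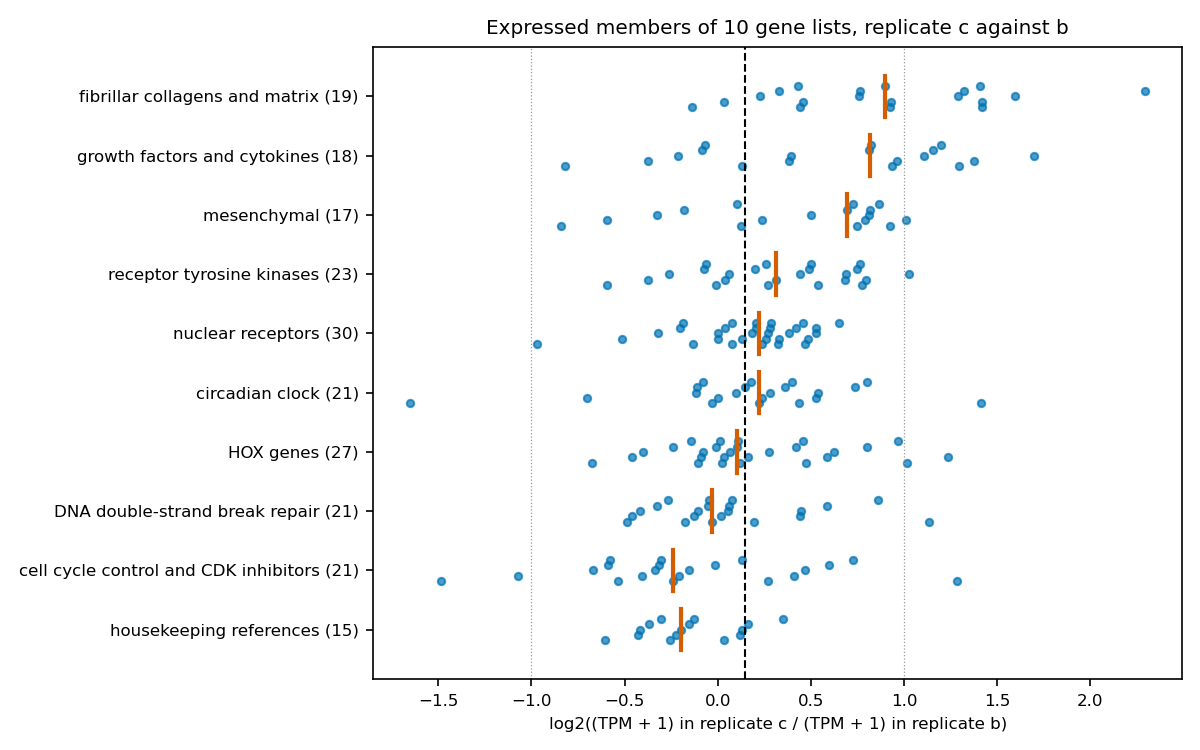
log2 ratio of TPM + 1 in replicate c to that in b for each expressed member (points) of the 10 lists with at least 15 expressed members, with the list median as an orange bar, the median of all expressed genes (0.15) as a dashed line and 2-fold differences dotted. The matrix, growth factor and mesenchymal medians lie at 0.90, 0.82 and 0.69, to the right of the dashed line, and the housekeeping and cell cycle control medians to its left.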

How the data were processed

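Poly(A) RNA of 3 wild-type U2OS libraries was described, grouped by the sample titles. Values were deposited by the authors as FPKM, per the file headers, replicate 1 in 1 table and b and c in another. CASAVA, HISAT2 and the build GRCh38.p12 are listed, without versions, in the submitters' processing notes. No source used here gives the counting tool, annotation or strand setting. Of 56982 identifiers in both tables, 56868 had a GENCODE 29 gene, which gave symbols and lengths. Reads were recovered from the steps between low FPKM values and the method was tested on simulated data. The simulation used the lengths assumed here, so it does not test them. FPKM were rescaled to TPM over 19644 nuclear protein-coding genes with Python 3.11.15, pandas 2.3.3 and numpy 2.4.6. There was 1 group and no test, so no p-value is given; a mean ± SD covers 3 libraries.

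Genes were named by rule: the 25 best worst ranks, up to 5 leading members and the silent members of each list, the 10 largest differences between b and c each way, the 5 largest gaps between the tables, the 10 leading noncoding genes and the 10 steadiest genes. Y-linked genes and XIST were left out, and some further results are not given here. Chosen after their values were seen were the neighbours of COL1A2, CDKN2A and TERT, the leading members of symbol families, the promoters shown, and ABCB1, ALPL, ARNTL, BGLAP, CDH1, CDH2, CDH5, CLOCK, COL2A1, COL4A1, COL7A1, CRY1, DANCR, DAXX, EGFR, ESR1, FBN1, HLA-B, HLA-E, KRT14, LOX, LOXL2, MALAT1, MGMT, NORAD, NR3C1, PER1, PRAME, PTPRC, RB1, RXRB, SNAI2, TAP1, TAP2, TMEM173, TNFRSF11B, TWIST2, VDR and ZEB1. The libraries, the 31 gene lists and the families were chosen with earlier results of these data known. Alternatives were other scales, thresholds, filters, list lengths and folds, each library left out, and, chosen after the data were seen, one length for all libraries. Promoter sequences are from RefSeq, GRCh38.p14.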

Additional observations from a re-analysis of the deposited data

How the results depend on the processing

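No paired analysis was possible because all 3 libraries belong to 1 group and no result comes from a test. Of 88 alternatives over all results 70 stayed within the spread or within 1.5 times the value and 18 moved. Some of the 70 could not move. Rescaling a library keeps its ranks, so all 3 libraries again shared 55 of their top 100. Expressed genes hold none near 0 in one table, so leaving such genes out could not change the SD. The expressed and silent counts stayed within 1.5 times under every setting tried, and without each library in turn they ran from 12049 to 12664 and from 3676 to 3866. Without the filter on low values rho between replicates 1 and c was 0.91. The genes shared by all 3 libraries were 272 of the top 500 and 571 of the top 1000. The mean share of TPM was 24.96% for the top 100 rescaled over all genes, 5.53% for the top 10 and 52.6% for the top 1000. The median SD of log2(TPM + 1) was 0.48, but 0.82 on the deposited FPKM and 0.20 with replicates b and c only; without each library in turn it ran from 0.20 to 0.52, the lowest without replicate 1. Replicate c exceeded b in 2300 genes at a fold of 1.5, 54 at 4 and 413 at TPM of at least 10, and fell below it in 579, 13 and 67, and in 234 when centred on the median. Of the listed genes 37 were at exactly 0 and 105 under TPM 0.5, against 60 silent. The setting with one length for all 3 libraries was chosen after seeing the data, as was leaving genes near 0 in one table out of the SD; the former gave 12233 expressed and 3303 silent genes. Differences under a few reads per library were not resolved at this depth.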
